A study of Mus musculus with 4 samples.

Results

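The genes described here are 41 named members of the interferon response and of class I antigen presentation: both receptor subunits, 6 transcription factors and coactivators, 7 nucleic acid sensors and their regulators, 20 antiviral effectors with 1 chemokine among them, and 6 genes of class I antigen presentation. They were taken by symbol from 23282 rows of the count tables, and all 41 had a row.

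Interferons are cytokines that cells release when they sense viral nucleic acid. They bind receptors of the class formed by IFNAR1 and IFNAR2, and a complex that contains STAT2 and IRF9 then switches on interferon-stimulated genes, many of which block steps of viral replication. The same signals raise the machinery that loads peptides onto class I major histocompatibility molecules.

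The libraries came from primary mouse pancreatic acinar cells, the cells that make digestive enzymes, of strain C57BL/6J. One group of cells carried an adenovirus for estrogen-related receptor γ (ERRγ, gene Esrrg), an orphan nuclear receptor known for its part in oxidative metabolism, and the controls carried one for green fluorescent protein (GFP). All cells received virus at a multiplicity of infection of 100 for 36 h, in Waymouth's medium with 2.5% serum and 25 ng/ml epidermal growth factor. There were 2 libraries of transcript-end reads for each virus, numbered 1 and 2. Since adenovirus was in every culture and no library of cells without virus was analysed here, the comparison is between viruses that differ in their cargo. Whether libraries 1 and 2 stem from different mice or dishes is not stated in the labels. The p-values therefore cover the spread among these 4 samples and no more, and that spread may be technical.

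Totals ran from 10105604 to 11012351 counts per library, and levels are given as CPM, counts brought to a common library size with TMM scaling. Each transcript is read near its end, so length has little bearing on a CPM value. Esrrg had 1453 and 12994 counts in ERRγ libraries 1 and 2, against 86 and 107 in the GFP libraries, so it rose (adjusted p = 0.0109 with edgeR) and ERRγ library 2 stood 9.90-fold above ERRγ library 1 in CPM. Its call was lost with limma-voom (adjusted p = 0.0623) and without GFP library 1 (0.168) or GFP library 2 (0.127). The 7 acinar markers Cpa1, Cela1, Cel, Pnlip, Ptf1a, Bhlha15 and Rbpjl summed to 20.2 and 13.2 CPM with ERRγ and 27.3 and 10.5 CPM with GFP, with Ptf1a at 0 in every library, so the acinar label has little support from them. The 5 ductal markers, Krt19 among them, summed to 1938 and 2409 CPM with ERRγ and 2666 and 2683 CPM with GFP. Of these 5, Krt7 fell to 796 and 803 CPM with ERRγ against 1264 and 1245 CPM with GFP (adjusted p = 0.0285), and Cftr rose to 13.2 and 12.7 CPM with ERRγ against 4.604 and 6.28 CPM with GFP (adjusted p = 0.0444). The 12 leukocyte markers were low and uneven, and summed to 9.28 and 15.1 CPM with ERRγ and 11.8 and 14.3 CPM with GFP. Cd68 had 2.41 and 6.62 CPM with ERRγ and 5.22 and 4.22 CPM with GFP. Csf1r had 3.75 and 7.11 CPM with ERRγ and 2.46 and 3.32 CPM with GFP. Cd3e had no count, and Ptprc, the pan-leukocyte phosphatase CD45, had 1 count over the 4 libraries together. Endothelial markers summed to between 4.22 and 13.1 CPM over the 4 libraries, fibroblast and stellate markers to between 502 and 738 CPM and endocrine markers to between 7.21 and 123 CPM. In such bulk libraries fewer cells of a type and less RNA per cell cannot be told apart.

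With ERRγ, 3 members fell and none rose. Ifit3, an antiviral effector whose human counterpart binds IFIT1, averaged 1.01 ± 0.802 CPM with ERRγ and 8.45 ± 0.233 CPM with GFP (SD, n = 2 each) and was 8.38-fold lower. Ddx58, which encodes the RNA sensor RIG-I, averaged 11.5 ± 4.28 CPM with ERRγ and 27.5 ± 5.72 CPM with GFP and was 2.37-fold lower. Ifnar1, a subunit of the interferon receptor, averaged 34.2 ± 0.259 CPM with ERRγ and 53.5 ± 0.0527 CPM with GFP and was 1.57-fold lower. The 6 genes of class I antigen presentation, among them B2m, H2-K1 and H2-D1 with the highest levels of the set, did not pass the test in either direction. Tests were edgeR's quasi-likelihood test with Benjamini-Hochberg adjustment over all 13070 genes tested, and an adjusted p under 0.05 counted as a call.

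Of the 41 members 35 passed the filter on low counts. The 3 falls were 8.57% of these 35, while 1.78% of all genes tested fell. None of the 35 rose, while 5.06% of all genes tested did. At an unadjusted p under 0.05 there were 11 members below 0, beside 9.53% of all genes tested, and 2 above, Oasl2 and Tap1, beside 13.6%. Neither DESeq2 nor limma-voom called a rise. Both ERRγ libraries lay below both GFP libraries in 22 of the 35 members, against 26.6% of all genes tested, and above them in 3, against 27.4%. The median log2 fold change of the 35 was −0.42, beside −0.01 for all genes tested. These counts are a description only, in part because 7 of the 35 passed the filter through the GFP pair alone. Those 7 were Irf7, Ifit3, Ifit3b, Mx1, Gbp2, Rtp4 and Cxcl10, and Oasl2 passed through the ERRγ pair alone. The members were also chosen with earlier results of these data known, which a cut at 5 CPM does not undo. Among the 22 members with a mean of at least 5 CPM over the 4 libraries, the ERRγ libraries lay below in 12 and above in 2, beside 28.2% and 28.1% of all rows at that level, and the median was −0.29.

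**Figure D1:**
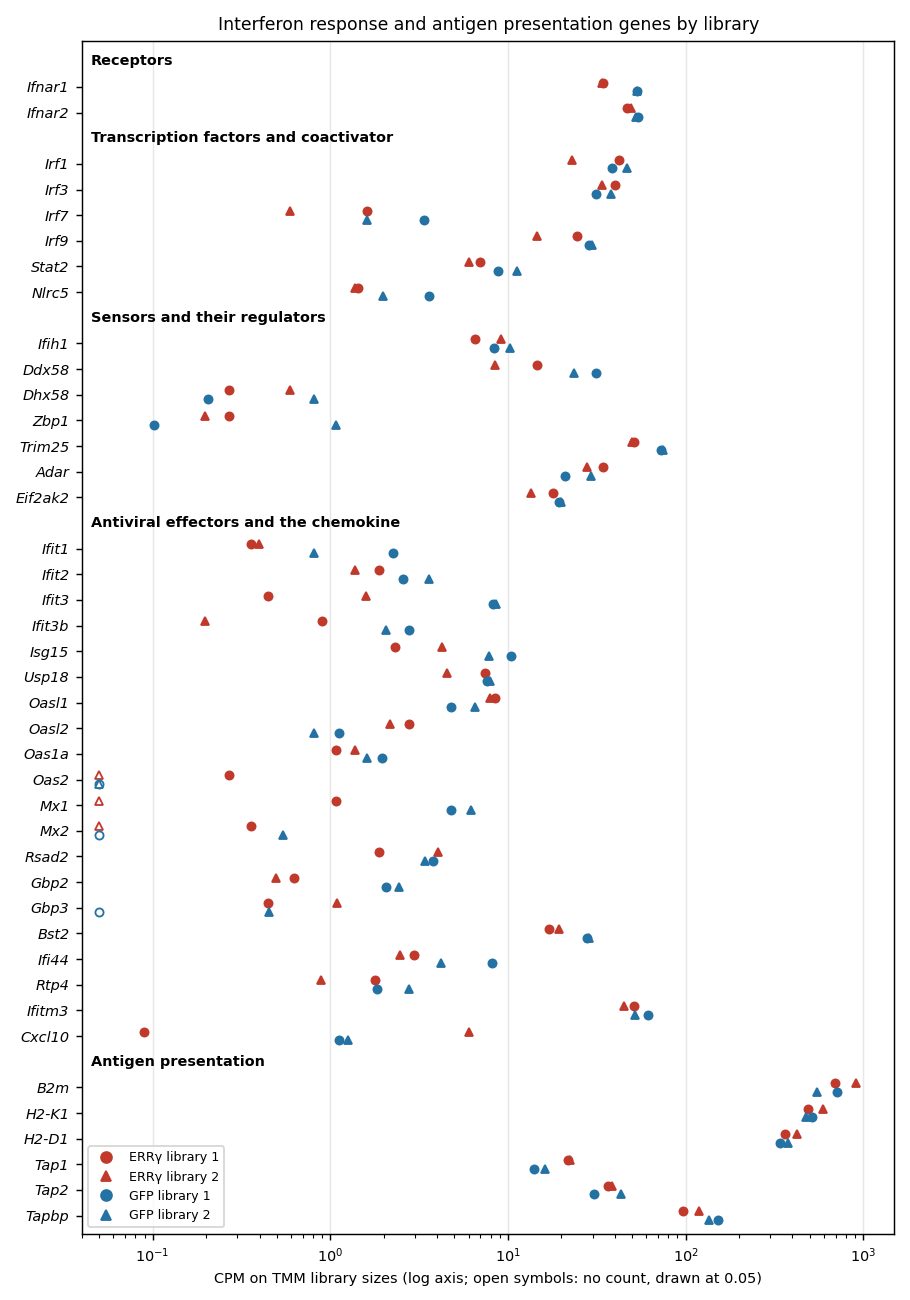
Level of each of the 41 members in each library, in CPM on a log axis, grouped by role, with ERRγ in red above GFP in blue and circles and triangles for libraries 1 and 2. B2m, H2-K1 and H2-D1 stand between 339 and 914 CPM in every library, while every antiviral effector except Bst2 and Ifitm3 stays at or below the 10.4 CPM of Isg15 in GFP library 1, and open symbols mark libraries with no count.

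The promoters of the members that fell differ in whether they hold a letter match to an element through which interferon acts. The interferon-stimulated response element (ISRE) is bound by the complex that contains STAT2 and IRF9 and by other IRF proteins. It was searched as 2 copies of GAAA with any 2 bases between them, on both strands, in the 250 bases before each RefSeq transcript start (build GRCm38.p6), where 32 of the 41 members had an entry. It occurred in 12 of these 32 members, namely Stat2, Ifit1, Ifit3, Ifit3b, Isg15, Oas1a, Rsad2, Gbp2, Gbp3, Bst2, Cxcl10 and B2m, and in 2.98% of all 32851 promoters of the same length (3.46% of 27025 genes). The sequences below are those of the 3 members that fell and of Ifit3b, the neighbour of Ifit3. Those of Isg15, which came near the threshold, and of B2m, which holds a match and did not pass the test, are given too. They are written 5′ to 3′ in the direction of the gene, with ISRE matches in capitals.
Ifit3, chr19:34583279-34583528, plus strand: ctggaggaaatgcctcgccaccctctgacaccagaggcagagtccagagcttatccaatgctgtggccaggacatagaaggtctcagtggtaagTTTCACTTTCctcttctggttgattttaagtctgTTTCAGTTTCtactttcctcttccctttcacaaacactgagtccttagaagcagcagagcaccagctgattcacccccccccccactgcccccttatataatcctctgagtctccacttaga
Ifit3b, chr19:34607707-34607956, plus strand: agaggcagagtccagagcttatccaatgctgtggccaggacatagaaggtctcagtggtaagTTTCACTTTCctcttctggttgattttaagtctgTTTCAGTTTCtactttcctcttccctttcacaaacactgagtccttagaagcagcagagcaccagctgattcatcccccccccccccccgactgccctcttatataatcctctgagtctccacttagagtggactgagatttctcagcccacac
Isg15, chr4:156200819-156201068, minus strand: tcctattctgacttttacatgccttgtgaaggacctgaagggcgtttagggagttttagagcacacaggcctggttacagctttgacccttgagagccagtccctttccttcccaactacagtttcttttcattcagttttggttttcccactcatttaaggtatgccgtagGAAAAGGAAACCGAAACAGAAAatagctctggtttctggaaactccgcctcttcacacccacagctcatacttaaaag
B2m, chr2:122147437-122147686, plus strand: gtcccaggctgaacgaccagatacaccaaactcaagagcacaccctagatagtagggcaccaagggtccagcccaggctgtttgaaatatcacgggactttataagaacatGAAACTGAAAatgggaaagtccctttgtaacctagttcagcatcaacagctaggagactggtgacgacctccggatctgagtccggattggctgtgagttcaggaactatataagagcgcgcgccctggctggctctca
Ddx58, chr4:40239826-40240075, minus strand: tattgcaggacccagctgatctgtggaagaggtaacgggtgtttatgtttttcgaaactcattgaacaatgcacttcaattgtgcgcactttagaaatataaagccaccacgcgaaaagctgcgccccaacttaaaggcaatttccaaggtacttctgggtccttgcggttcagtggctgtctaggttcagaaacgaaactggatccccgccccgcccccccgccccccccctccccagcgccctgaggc
Ifnar1, chr16:91484965-91485214, plus strand: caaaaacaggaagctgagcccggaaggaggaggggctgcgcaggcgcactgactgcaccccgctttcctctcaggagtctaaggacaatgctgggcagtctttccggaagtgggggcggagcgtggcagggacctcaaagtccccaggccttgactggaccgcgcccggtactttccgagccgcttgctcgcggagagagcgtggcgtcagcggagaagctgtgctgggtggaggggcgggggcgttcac

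Ifit3 holds the letters at positions −156 and −122 from the transcript start, on the minus strand, and Ifit3b holds the same matched letters at −188 and −154. Isg15 has 3 matches that overlap each other, starting at −78, −72 and −66, and B2m has 1 at −139. Ddx58 and Ifnar1 have none in this window, which says only that these letters are not in it. Of the 12 members with a match, Ifit3 fell. The log2 fold changes of 7 others were below 0 and those of B2m and Cxcl10 above 0, with none past the test, and Ifit1 and Gbp3 were too low to test.

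Other motifs were searched in the same windows. The interferon γ-activated site was searched as TTCNNNGAA, which reads the same on both strands. It occurred in 6 of the 32 members (Ifnar2, Irf1, Eif2ak2, Ifit2, Oas1a and Bst2), in 7.02% of all promoters and in 8.13% of all genes. The match in Bst2 overlaps one of its ISRE matches. For the core of the ERR response element, AAGGTCA, Irf9 had 2 matches, at −135 and −28, in its window 55604329 to 55604578 on chromosome 14. Its other window, 55603735 to 55603984, held 0 matches. Oasl1 had 1 match, at −196. The core thus occurred in 2 of the 32 members, in 4.08% of all promoters and in 4.70% of all genes. It overlapped no other match, and neither Irf9 nor Oasl1 passed the test. A match is a description of letters and not of binding.

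**Figure D2:**
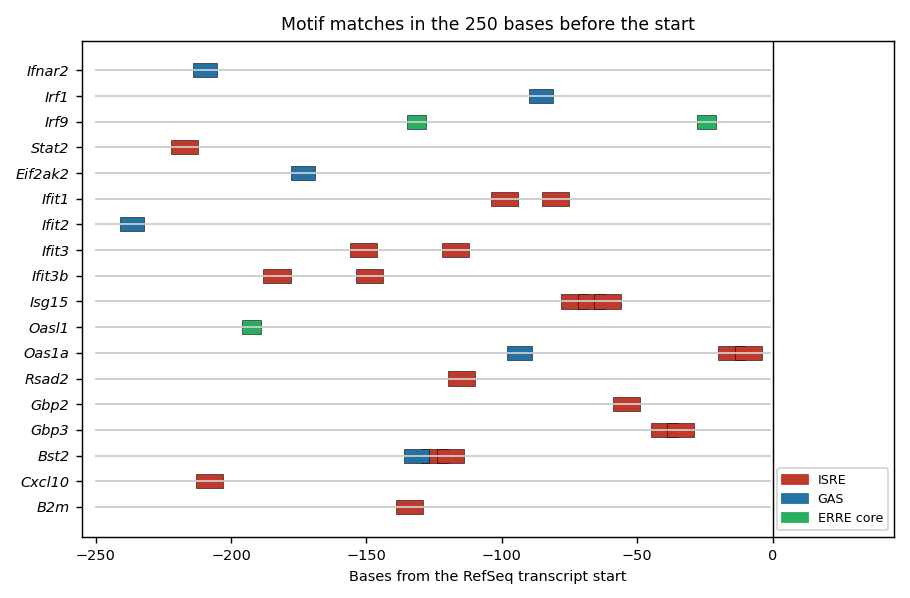
Matches of the 3 motifs in the 250 bases before a RefSeq start of the 18 members that hold any, against the distance from that start in bases. ISRE matches in red lie in 12 members, GAS matches in blue in 6, and the ERRE core in green in Irf9 and Oasl1.

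Of the receptor subunits 1 of 2 fell. Ifnar1 (chromosome 16, 91485238 to 91507441, plus strand, GRCm38) had 34.3 and 34.0 CPM with ERRγ and 53.5 and 53.6 CPM with GFP. Both ERRγ libraries lay well below both GFP libraries, and the libraries of a group were nearly equal (log2 fold change −0.65, SE 0.14, adjusted p = 0.0305 with edgeR). Ifnar2, its partner on the same chromosome (91372783 to 91405589, plus strand), had 46.6 and 49.4 CPM with ERRγ and 53.9 and 52.3 CPM with GFP, and its change did not pass (log2 fold change −0.15, SE 0.14, adjusted p = 0.570). Whether the changes of these subunits differ from each other was not tested. In the last 500 bases of the longest Ifnar1 transcript, 6.43% of the 50-base stretches also occur in another gene.

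A chain of the receptor for interferon γ, outside the 41, fell as well. Ifngr1, which encodes the ligand-binding chain, had 118 and 125 CPM with ERRγ against 202 and 186 CPM with GFP and fell 1.59-fold (adjusted p = 0.0247 with edgeR). Ifngr2 (log2 fold change −0.20, adjusted p = 0.590), the interferon λ receptor gene Ifnlr1 (−0.33, adjusted p = 0.323) and Il10rb, which serves the λ receptor as well (−0.33, adjusted p = 0.295), did not pass. None of the 10 interferon genes looked up was expressed at a level that could be tested. Of these 10, 7 had no count in any library, Ifnb1, Ifna1, Ifna2, Ifna4 and Ifng among them. That allows up to 0.268 to 0.307 CPM at 3 counts in a library. The others, Ifnk, Ifnz and Ifnl3, had at most 4 counts in a library. Such floors cover counting error only.

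Of the transcription factors none passed the test. Irf9, the DNA-binding part of the STAT complex, had 24.4 and 14.6 CPM with ERRγ and 28.7 and 29.6 CPM with GFP. The ERRγ libraries lay below the GFP libraries but differed among themselves by more than the gap between the groups (log2 fold change −0.58, SE 0.25, adjusted p = 0.217). Stat2 had 6.96 and 6.03 CPM with ERRγ and 8.80 and 11.2 CPM with GFP, a log2 fold change of −0.62 (adjusted p = 0.258).

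Irf1, an interferon γ target and activator of class I genes, had 42.2 and 22.9 CPM with ERRγ and 38.4 and 46.6 CPM with GFP, so ERRγ library 2 alone stood low (log2 fold change −0.38, SE 0.27, adjusted p = 0.442). Irf3, which is present before any stimulus and is activated by phosphorylation, had 39.9 and 34.0 CPM with ERRγ and 31.4 and 37.9 CPM with GFP, and its groups overlapped (log2 fold change 0.09, SE 0.17, adjusted p = 0.796). Irf7, the factor that amplifies interferon production, was scarce, with 18 and 6 counts with ERRγ against 33 and 18 counts with GFP, a log2 fold change of −1.15 (SE 0.69, adjusted p = 0.361). Nlrc5, the coactivator of class I genes, had 16 and 14 counts with ERRγ against 35 and 22 counts with GFP, a log2 fold change of −0.97 (SE 0.55, adjusted p = 0.339). For both of these the ERRγ libraries lay below the GFP libraries, but ERRγ library 1 and GFP library 2 were almost equal in Irf7 and the errors were wide. Without ERRγ library 1 the log2 fold change was −0.89 for Irf1 and −0.997 for Irf9. Without ERRγ library 2 it was −0.013 for Irf1 and −0.26 for Irf9. In such fits 1 ERRγ library stands against the GFP pair, which alone sets the spread.

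An IRF gene that is not among the 41 rose. Irf8, known from myeloid cells and B cells, had 69 and 101 counts with ERRγ against 4 and 10 counts with GFP, an 11.95-fold rise (log2 fold change 3.58, SE 0.54, adjusted p = 0.00914 with edgeR). It passed the filter on low counts through the ERRγ pair alone. Its level of 6.16 and 9.98 CPM with ERRγ, against 0.409 and 0.898 CPM with GFP, stood beside the leukocyte marker sums given above, in which the ERRγ and GFP libraries overlapped. Of the 12 leukocyte markers Csf1r, the receptor gene of macrophage colony-stimulating factor, had both ERRγ libraries above both GFP libraries. It had 3.75 and 7.11 CPM with ERRγ against 2.46 and 3.32 CPM with GFP, and did not pass (adjusted p = 0.292 with edgeR). Adgre1, Fcer1g and Siglech went the other way, with both ERRγ libraries below both GFP libraries. Adgre1 had 0 and 0 counts with ERRγ against 8 and 20 with GFP. Fcer1g had 0.535 and 0.494 CPM with ERRγ against 0.614 and 2.78 CPM with GFP. The part of leukocytes in the Irf8 result was not tested. Irf2 and Irf5 did not pass, with log2 fold changes of 0.04 and −0.33. The kinase genes Jak1 (−0.37, adjusted p = 0.150), Jak2 (−0.58, adjusted p = 0.0788) and Tyk2 (−0.28, adjusted p = 0.375) did not pass with edgeR. All 3 had their ERRγ libraries below their GFP libraries. In the list of 25 genes that holds them, given below, this was so in 10 (40%), beside 26.6% of all genes tested. The reverse held in 3 of the 25 (12%), beside 27.4%. Partners such as Jak1 were named after their values were seen.

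Among the sensors, Ddx58 fell. Its protein RIG-I recognises RNA with a triphosphate end and signals through MAVS. It had 14.5 and 8.50 CPM with ERRγ and 31.5 and 23.4 CPM with GFP (chromosome 4, 40203773 to 40239828, minus strand; log2 fold change −1.25, SE 0.29, adjusted p = 0.0441). The groups did not overlap, and the lowest value was that of ERRγ library 2. Ifih1, which encodes MDA5, the sensor of long double-stranded RNA, had 6.51 and 9.19 CPM with ERRγ and 8.39 and 10.2 CPM with GFP, and its groups overlapped (log2 fold change −0.25, SE 0.31, adjusted p = 0.684).

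Trim25, the ubiquitin ligase that activates RIG-I, came close to the threshold. It had 51.6 and 49.98 CPM with ERRγ and 72.5 and 74.5 CPM with GFP, with a gap between the groups far wider than within them (log2 fold change −0.53, SE 0.13, adjusted p = 0.0541). Adar, which edits adenosine in double-stranded RNA, had 34.3 and 28.0 CPM with ERRγ and 21.1 and 29.5 CPM with GFP, a log2 fold change of 0.30 (adjusted p = 0.448). Eif2ak2, which encodes the RNA-activated kinase PKR, had 17.9 and 13.4 CPM with ERRγ and 19.3 and 19.9 CPM with GFP, a log2 fold change of −0.32 (adjusted p = 0.435). Dhx58, the RIG-I relative LGP2, with 3 and 6 counts with ERRγ against 2 and 9 with GFP, and Zbp1, a sensor of Z-form nucleic acid, with 3 and 2 counts against 1 and 12, were too low to test.

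Downstream of these sensors, Mavs rose. This adaptor on the mitochondrial outer membrane, to which RIG-I and MDA5 signal, had 63.3 and 49.8 CPM with ERRγ and 19.3 and 27.8 CPM with GFP, a 2.39-fold rise (log2 fold change 1.26, SE 0.21, adjusted p = 0.0136 with edgeR). It was the 1 rise among 22 tested genes of a list of 27 for nucleic acid sensing and signalling, in which none fell and whose median log2 fold change was −0.14. That is 4.55% of the 22, near the 5.06% of all genes tested that rose. The kinase gene Ikbke, with 14.6 and 17.8 CPM with ERRγ and 29.2 and 25.9 CPM with GFP, did not pass (log2 fold change −0.77, adjusted p = 0.0605). The DNA sensor gene Mb21d1, which encodes cGAS (−0.40, adjusted p = 0.634), its partner Tmem173, which encodes STING (−0.51, adjusted p = 0.248), and the kinase gene Tbk1 (−0.27, adjusted p = 0.440) did not pass.

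The antiviral effectors were few in reads. Ifit3 (chromosome 19, 34583531 to 34588731, plus strand) was read with 5 and 16 counts with ERRγ against 81 and 96 counts with GFP, which is 0.446 and 1.58 CPM against 8.29 and 8.62 CPM, a log2 fold change of −3.07 (SE 0.56, adjusted p = 0.0179). The lowest GFP count, 81, stood far above the highest ERRγ count, 16, but Ifit3 passed the filter on low counts through the GFP pair alone. Ifit3 is the member that both fell and has ISRE matches in its promoter. Its neighbour Ifit3b (34607970 to 34613401, plus strand) was read with 10 and 2 counts with ERRγ against 27 and 23 with GFP. It also entered the test through the GFP pair alone, and its change did not pass by itself (log2 fold change −2.10, SE 0.75, adjusted p = 0.145 with edgeR). Of the stretches of 50 bases in the last 500 bases of the longest Ifit3 transcript, 14.9% also occur in an Ifit3b transcript. Reads from these stretches could be exchanged. In the same part of Ifit3b, 1.77% of the stretches occur in another gene, E2f1. With their counts summed, a setting chosen after seeing the data, the pair had 15 and 18 counts with ERRγ against 108 and 119 with GFP, with each group's libraries close together (log2 fold change −2.80, SE 0.36, adjusted p = 0.00538 with edgeR).

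The remaining IFIT genes, which lie on chromosome 19 too, had no call. Ifit1, which binds viral RNA lacking a methylated cap, had 4 and 4 counts with ERRγ against 22 and 9 with GFP and was too low to test. Ifit2 had 21 and 14 counts with ERRγ against 25 and 40 with GFP, a log2 fold change of −0.91 (SE 0.51, adjusted p = 0.331). In both genes the ERRγ libraries lay below the GFP libraries.

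Of the other effectors the ubiquitin-like modifier gene Isg15 came nearest to a call, with 26 and 43 counts with ERRγ against 102 and 87 with GFP, a log2 fold change of −1.48 (SE 0.40, adjusted p = 0.0714). Mx1, a GTPase that blocks viral replication and is known to be defective in many inbred mouse strains, had 12 and 0 counts with ERRγ against 47 and 69 with GFP, a log2 fold change of −3.29 (SE 0.91, adjusted p = 0.0739). Bst2, the tetherin gene, had 17.04 and 19.4 CPM with ERRγ and 27.7 and 28.7 CPM with GFP, a log2 fold change of −0.63 (SE 0.18, adjusted p = 0.0815). All 3 had both ERRγ libraries below both GFP libraries. Mx1, like Gbp2 below, passed the filter on low counts through the GFP pair alone. Gbp2, a guanylate-binding GTPase gene, had 7 and 5 counts with ERRγ against 20 and 27 with GFP, a log2 fold change of −1.97 (SE 0.62, adjusted p = 0.105). Ifi44 had 33 and 25 counts with ERRγ against 80 and 47 with GFP, a log2 fold change of −1.19 (SE 0.46, adjusted p = 0.170). Without a filter on low counts, Isg15 (adjusted p = 0.00239), Mx1 (2.02e-06), Bst2 (0.0359) and Trim25 (0.0169) passed as well, and their adjusted p in the other fits of all 4 libraries reached 0.0724, 0.408, 0.134 and 0.115. Isg15 also passed with DESeq2 (adjusted p = 0.0383), and Trim25 passed with edgeR when rows under a mean of 5 CPM were left out (adjusted p = 0.0496), a setting in which Ddx58 did not (adjusted p = 0.0507).

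The oligoadenylate synthetase-like genes had their ERRγ libraries above. Oasl1, an inhibitor of Irf7 translation in mice, had 95 and 80 counts with ERRγ against 47 and 73 with GFP, a log2 fold change of 0.52 (SE 0.32, adjusted p = 0.378). Oasl2 had 31 and 22 counts with ERRγ against 11 and 9 with GFP, a log2 fold change of 1.35 (SE 0.57, adjusted p = 0.206). Both had non-overlapping groups with ERRγ above, and neither passed. Oas1a had 12 and 14 counts with ERRγ against 19 and 18 with GFP, a log2 fold change of −0.53 (SE 0.58, adjusted p = 0.635), and 56.1% of the 50-base stretches in its last 500 bases also occur in Oas1g, so its counts are uncertain.

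The rest of the effectors did not pass. Usp18, the protease that removes ISG15 and restrains the receptor, had 7.40 and 4.54 CPM with ERRγ and 7.67 and 7.90 CPM with GFP, a log2 fold change of −0.38 (adjusted p = 0.570). Ifitm3, which blocks virus entry at endosomes, had 51.1 and 45.05 CPM with ERRγ and 61.3 and 52.0 CPM with GFP. Its log2 fold change was −0.23 (adjusted p = 0.405 with edgeR). Of the 50-base stretches in its last 500 bases, 14.0% occur in other genes, so its counts are less certain. Rsad2, the viperin gene, had 21 and 41 counts with ERRγ against 37 and 38 with GFP (−0.28, adjusted p = 0.785 with edgeR). Rtp4 had 20 and 9 counts with ERRγ against 18 and 31 with GFP (−0.78, adjusted p = 0.483).

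At the bottom of the range, Oas2 had 3 and 0 counts with ERRγ against none with GFP, Mx2 had 4 and 0 counts with ERRγ against 0 and 6 with GFP, and Gbp3 had 5 and 11 counts with ERRγ against 0 and 5 with GFP. None of these 3 could be tested, and no difference was detectable at this depth.

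**Figure D3:**
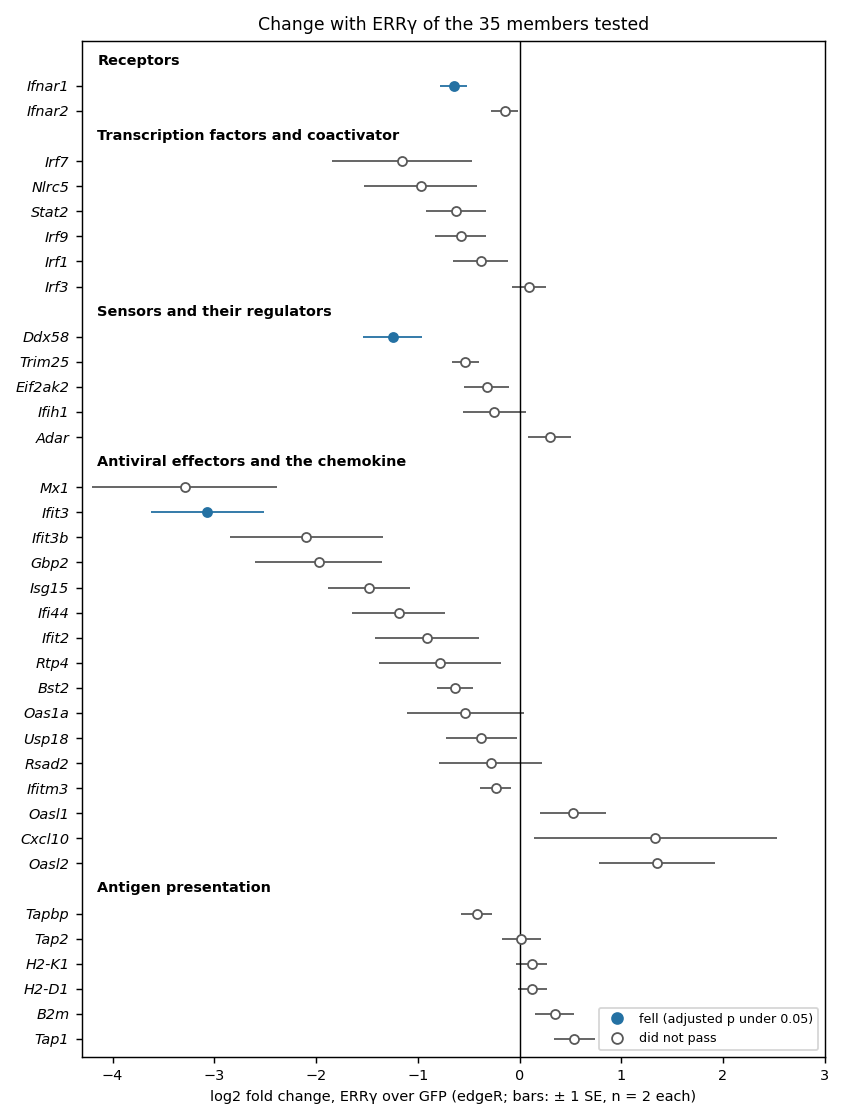
Log2 fold change, ERRγ over GFP, of the 35 members tested, with bars of 1 SE, ordered within each role. Ifit3, Ddx58 and Ifnar1, filled in blue, fell, and 25 of the 35 points lie below 0.

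The chemokine gene Cxcl10, which draws T cells and is induced by interferon and by NF-κB, was split between the ERRγ libraries. It had 1 count in ERRγ library 1 and 61 in ERRγ library 2, against 11 and 14 counts with GFP, so the GFP libraries lay between the ERRγ libraries. The group change had no stable direction: the log2 fold change was 1.34 (SE 1.19, adjusted p = 0.557) with edgeR and −0.56 with limma-voom (adjusted p = 0.860). Without ERRγ library 2 it was −3.58, and without ERRγ library 1 it was 2.32, each with 1 ERRγ library against the GFP pair. Esrrg itself was 9.90-fold higher in CPM in the same library 2, and whether the splits are related was not tested.

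Other members differed between the ERRγ libraries in either direction. On a scale of log2(CPM + 0.5), Irf1 was 0.87 lower, Irf9 0.72 lower, Ddx58 0.74 lower and Mx1 1.65 lower in ERRγ library 2 than in library 1. Ifit3 was 1.14 higher, Rsad2 0.94 higher and Isg15 0.75 higher in ERRγ library 2. All 6 antigen presentation members were higher in ERRγ library 2, with differences from 0.04 (Tap1) to 0.39 (B2m). All 6 transcription factors and coactivators were lower there, with differences from −0.03 (Nlrc5) to −0.95 (Irf7). Of all 13070 genes tested, 6618 were lower in ERRγ library 2. Library 2 relative to library 1, the median member differed by −0.10 between the ERRγ libraries and by 0.04 between the GFP libraries, beside −0.01 and 0.00 for all genes tested.

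**Figure D4:**
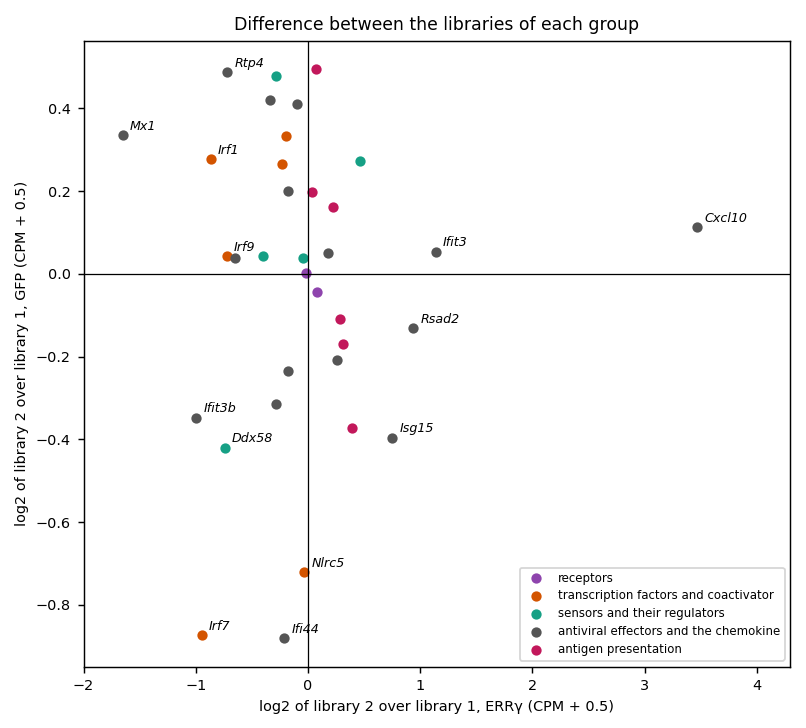
Log2 of library 2 over library 1 for the 35 members tested, in the ERRγ pair on the horizontal axis and in the GFP pair on the vertical axis, coloured by role. Cxcl10 stands alone at 3.47 in the ERRγ pair, against 0.11 in the GFP pair.

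The class I genes were abundant with either virus. B2m, the light chain of class I molecules, had 697 and 914 CPM with ERRγ and 716 and 553 CPM with GFP, a log2 fold change of 0.34 (SE 0.19, adjusted p = 0.321). The heavy chain gene H2-K1 had 487 and 595 CPM with ERRγ and 517 and 479 CPM with GFP, a log2 fold change of 0.12 (SE 0.15, adjusted p = 0.692). H2-D1 had 362 and 423 CPM with ERRγ and 339 and 379 CPM with GFP, a log2 fold change of 0.13 (SE 0.15, adjusted p = 0.659). In all 3 the groups overlapped. The log2 fold change of B2m was 0.53 without ERRγ library 1 and 0.13 without ERRγ library 2, each with 1 ERRγ library against the GFP pair. Only 0.443% of the 50-base stretches in the last 500 bases of H2-K1 occur in H2-D1, and 9.53% of those of H2-D1 occur in other genes, so its counts are less certain.

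The peptide loading genes had no call. Tap1, a subunit of the transporter that carries peptides into the endoplasmic reticulum, had 21.7 and 22.2 CPM with ERRγ and 14.0 and 16.2 CPM with GFP, a log2 fold change of 0.54 (SE 0.20, adjusted p = 0.157). Its partner Tap2 had 36.7 and 38.5 CPM with ERRγ and 30.7 and 43.4 CPM with GFP, a log2 fold change of 0.02 (SE 0.19, adjusted p = 0.969). Tapbp, which encodes the loading chaperone tapasin, had 96.5 and 120 CPM with ERRγ and 153 and 136 CPM with GFP, a log2 fold change of −0.42 (SE 0.15, adjusted p = 0.154). Tap1 stood higher with ERRγ in both libraries and Tapbp lower, while Tap2 overlapped. Tap1 overlaps Psmb9 on the opposite strand and Tapbp overlaps Zbtb22 on its own strand, and since the use of strand in counting is not given in the sources used here, reads of such neighbours cannot be told apart. Of the 41 members 19 overlap another annotated gene, among which Irf9 with Rnf31 and Ifnar2 with Gm21970 share a strand with a coding gene.

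Of 23 other class I pathway genes, which include immunoproteasome subunits and chaperones, 18 were tested and none passed in either direction with edgeR, 4 having an unadjusted p under 0.05 with a log2 fold change below 0 and 1 with one above, beside 9.53% and 13.6% of all genes tested. Their median was −0.13. Tapbpl, a tapasin relative, came nearest (log2 fold change −0.82, adjusted p = 0.0739), and the immunoproteasome genes Psmb8 (−0.07, adjusted p = 0.926), Psmb9 (0.23, adjusted p = 0.867) and Psmb10 (0.58, adjusted p = 0.197) did not pass.

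Class II genes, which present antigen from outside the cell and belong mainly to professional antigen-presenting cells, were scarce. Of 12 such genes 6 were tested. The endosomal protease gene Lgmn rose 1.96-fold, with 30.0 and 30.9 CPM with ERRγ and 14.0 and 17.1 CPM with GFP (adjusted p = 0.0239 with edgeR); legumain is not restricted to antigen-presenting cells. H2-Eb1 had 34 and 33 counts with ERRγ against 7 and 5 with GFP and just missed the threshold (log2 fold change 2.42, SE 0.59, adjusted p = 0.0505). H2-Ab1 had 30 and 82 counts with ERRγ against 16 and 4 with GFP, a log2 fold change of 2.44 (SE 0.79, adjusted p = 0.111), and H2-Aa had 4 and 7 counts with ERRγ against none with GFP. Their companion chain gene Cd74 had 0 and 3 counts with ERRγ against 4 and 4 with GFP, and their activator Ciita had 0 and 2 counts against 0 and 3, both at or near the floor. H2-Eb1 and H2-Ab1 passed the filter on low counts through the ERRγ pair alone. The macrophage markers went both ways: Adgre1 had no count with ERRγ and 8 and 20 counts with GFP, while Csf1r had 42 and 72 counts with ERRγ against 24 and 37 with GFP. The part of other cells in these class II values was not tested.

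Of 25 genes for other receptors, kinases, STAT and IRF proteins, feedback and ISG15 conjugation, all of them tested, 2 rose (8%) and 1 fell (4%), with a median of −0.16. The rises were Irf8 and Isg20, an interferon-induced exonuclease gene, which had 49.6 and 96.2 CPM with ERRγ and 27.4 and 25.8 CPM with GFP (2.73-fold, adjusted p = 0.0237 with edgeR). The fall was Ifngr1. Of 56 other interferon-induced genes 38 were tested, 1 rose and 1 fell (2.63% each), and the median was −0.07. Lgals9, the galectin-9 gene, fell 1.95-fold, to 65.3 and 63.3 CPM with ERRγ against 122 and 129 CPM with GFP (adjusted p = 0.00626 with edgeR). Pml, the organiser of nuclear bodies that take part in antiviral defence, rose 1.63-fold, with 80.8 and 70.3 CPM with ERRγ and 48.8 and 43.7 CPM with GFP (adjusted p = 0.0297 with edgeR). Over all 153 genes of these 6 lists, 109 were tested, 5 rose and 2 fell, and the median was −0.12. These are 4.59% and 1.83% of the 109, close to the 5.06% and 1.78% of all genes tested.

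**Figure D5:**
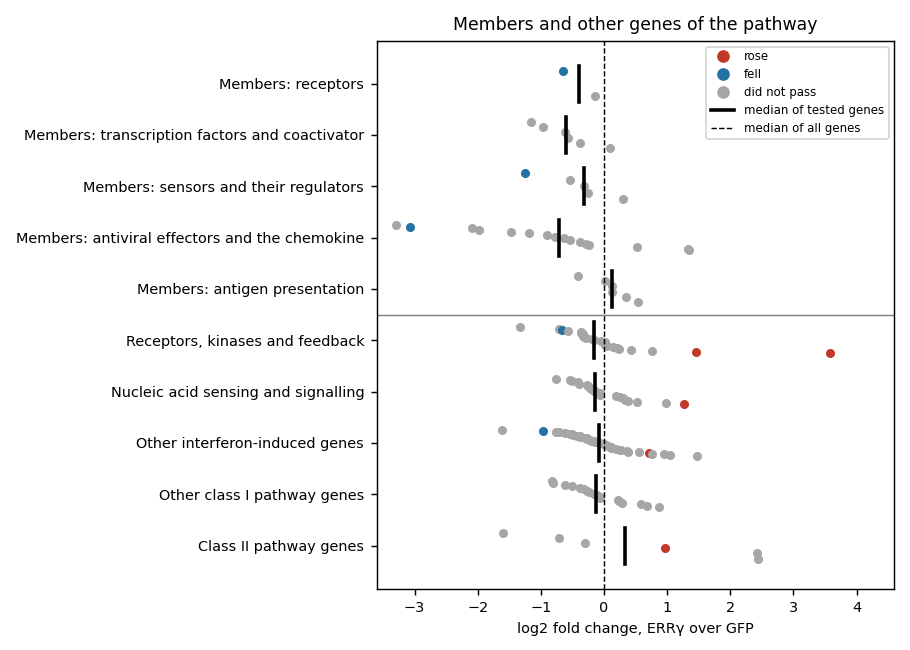
Log2 fold change, ERRγ over GFP, of the tested members by role, above the grey line, and of the other pathway lists below it, with each list's median as a bar and the median of all genes tested as a dashed line. Rises in red are Irf8, Isg20, Mavs, Pml and Lgmn, and falls in blue are Ifit3, Ddx58, Ifnar1, Ifngr1 and Lgals9.

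The calls for the members were lost when either GFP library was left out, as were most calls over all genes tested. Without GFP library 1 the adjusted p was 0.162 for Ifit3, 0.335 for Ddx58 and 0.247 for Ifnar1, and without GFP library 2 it was 0.143, 0.134 and 0.210, where the ERRγ pair alone sets the spread, and no member passed. The log2 fold changes hardly moved for Ifnar1 in the fits without 1 library (−0.66 to −0.64), and ranged from −1.69 to −0.92 for Ddx58 and from −4.21 to −2.41 for Ifit3. The median log2 fold change of the members tested was −0.55 without ERRγ library 1 and −0.53 without ERRγ library 2. For all genes tested it was −0.02 and −0.01. With library totals in place of TMM, Ifit3 alone passed, and Ifnar1 (adjusted p = 0.0649) and Ddx58 (0.0656) did not. The calls for Irf8, Isg20, Ifngr1, Mavs, Lgals9, Pml and Lgmn likewise ended without either GFP library, with adjusted p from 0.0514 to 0.252.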

How the data were processed

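The files hold raw read counts per gene, 1 table per library, deposited by the authors as whole numbers with a gene symbol in each row. Per the labels' protocols, 500 ng of RNA per sample went into a QuantSeq library, which reads transcript ends. The submitters' processing notes name Bowtie2, edgeR and the build mm10, without versions. The read counter, its use of strand and its annotation were not given in the sources used here, nor were molecular identifiers, so counting floors cover counting error only.

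Groups came from the titles. Rows were kept with edgeR's filterByExpr at a minimum count of 10, and 10212 of 23282 rows were left out. The main test was edgeR 4.0.16's quasi-likelihood test (R 4.3.3) with TMM scaling on all 4 libraries, ERRγ over GFP, with Benjamini-Hochberg adjustment over all genes tested. Residual degrees of freedom were 2, so precision is low, and totals of 10105604 to 11012351 counts limit genes with few reads. Libraries within a group differed beyond counting noise (chi-square per degree of freedom 24.2 for ERRγ and 15.2 for GFP). Alternatives were RLE scaling, library totals, no filter, a mean of at least 5 CPM, DESeq2 1.42.0, limma-voom (limma 3.58.1), a replicate block, and each library left out. The edgeR step was tested on simulated data. Members, lists and the naming rule were chosen with earlier results of these data known: all members are accounted for, and in the other lists the genes past the threshold are named, up to the 5 with the smallest p in a list. Partners of these (such as Ifngr2, Jak1, Tbk1 and Psmb8) were named after their values were seen. Some genes of these lists are not reported here by name. Positions came from GENCODE M21 and promoters from RefSeq on GRCm38.p6. Motifs were matched to letters in Python 3.11.15.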

Additional observations from a re-analysis of the deposited data

How the results depend on the processing

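With 2 libraries a group, the calls rest on few degrees of freedom. Of the 41 members 3 fell; 1 fell with library totals, 2 at a mean of at least 5 CPM (Ifnar1 and Trim25, with Ddx58 at an adjusted p of 0.0507 and Ifit3 not tested) and 7 with no filter, and 0 to 9 fell when 1 library was left out, 0 of them without either GFP library. The rises, 0, became 0 to 2 when 1 library was left out. Over all genes tested, 661 rose and 233 fell; with no filter 1271 rose and 738 fell, and with 1 library left out 92 to 1597 rose and 7 to 1098 fell. The median log2 fold change of the members, −0.42, was −0.28 at a mean of at least 5 CPM, −0.53 with limma-voom, and −0.55 to −0.40 with 1 library left out. Library totals moved the median of all genes by 0.030. The cause was not tested. Among members, Cxcl10 changed sign with limma-voom (−0.56). With 1 library left out Irf3 ranged from −0.041 to 0.23, Rsad2 from −0.94 to 0.17, Cxcl10 from −3.58 to 2.32, H2-K1 from −0.034 to 0.26 and Tap2 from −0.21 to 0.29. Among the remaining values of single members, in settings with all 4 libraries 223 kept their direction and side of the threshold, 6 newly passed and 3 no longer passed. With 1 library left out 114 kept both, 13 newly passed and 6 no longer passed. For the other named genes, Esrrg included, these were 62, 4 and 1 with all 4 libraries and 23, 1 and 16 with 1 left out. With a replicate block, 776 genes rose and 315 fell, 3 members fell, and the median of the members was −0.43; the labels do not say that a number marks a shared animal or day, and the correlation of same-numbered deviations was 0.013, so the numbers were not taken to pair the libraries.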
